A study of Mus musculus with 10 samples.

Results

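The 8 genes described here encode repressors of the circadian clock: the period genes *Per1*, *Per2* and *Per3*, the cryptochrome genes *Cry1* and *Cry2*, *Ciart* (also called CHRONO), and the DEC genes *Bhlhe40* (DEC1) and *Bhlhe41* (DEC2). They were taken by gene symbol from a table of 24421 rows, each was present once, and all 8 passed the filter on low counts together with 13172 other genes. The ethanol group was 5 male C57BL/6 mice (ethanol 51, 57, 59, 60 and 62, each called by its labelled animal number), aged 12 weeks, fasted for about 16 h from about 1800 h and then injected intraperitoneally with ethanol at 3 g/kg. The saline group was 5 mice of the same strain, sex, age and fast that were injected with an equal volume of saline (saline 32, 34, 36, 38 and 39). The gastrocnemius-plantaris complex of the calf was removed under isoflurane 1 h after the injection. The labels give no clock time of tissue collection for single mice and no batch, and p-values of group differences weigh them against the spread between these mice.

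In muscle, as in most tissues, the clock is a feedback loop in transcription. CLOCK and BMAL1 bind E-box sequences and activate the period, cryptochrome, *Ciart* and DEC genes, among others. PER and CRY proteins gather in complexes that return to the nucleus and silence CLOCK and BMAL1, CIART binds BMAL1 and adds to that repression, and the DEC proteins compete for the E-boxes themselves. Because each protein represses its own activators, the transcripts rise and fall over the day, each with its own phase. Several of the genes also answer to other signals. *Per1* is a direct target of the glucocorticoid receptor and of CREB, and the DEC genes respond to low oxygen and to nutrients.

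Poly(A) RNA was counted per gene. Depth was 20.3 to 31.3 M counts a library in ethanol and 32.0 to 42.7 M in saline, without overlap. Levels are given as CPM, in which each count is divided by its TMM-adjusted library size. Markers of muscle fibres made up 98986 to 119589 CPM in ethanol and 101447 to 118868 CPM in saline. Adipocyte markers summed to 525 to 1169 CPM in ethanol and 403 to 574 CPM in saline, and endothelial markers to 310 to 401 CPM in ethanol and 290 to 333 CPM in saline. The adipocyte value of 1169 CPM was that of ethanol 60, and the next was 656 CPM in ethanol 57. Fibroblast markers summed to 867 to 1193 CPM in ethanol and 859 to 1096 CPM in saline, and macrophage markers to 44.1 to 66.3 CPM in ethanol and 44.0 to 60.0 CPM in saline. All 7 adipocyte, 5 endothelial and 6 macrophage markers and 5 of 6 fibroblast markers had a positive log2 fold change, and none was called by edgeR. Their part in the repressor values was not tested, and more cells of a type cannot be told apart from more RNA per cell.

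By edgeR's quasi-likelihood test over 13180 genes, 0 of the 8 repressor genes passed a false discovery rate (FDR) of 0.05, and 0 genes did in the whole table (0% of those tested). At an unadjusted p under 0.05 stood 3 of the 8 repressors, against 1599 genes in all (12.1% of those tested). These were *Bhlhe41* and *Per3*, at higher counts in ethanol, where 820 genes (6.22%) were, and *Cry1*, at lower counts, where 779 genes (5.91%) were. DESeq2 called 55 genes and limma-voom 0, none of them a repressor. The 8 genes split into 3 positive and 5 negative log2 fold changes with a median of -0.07, where all tested genes had a median of 0.00096. Groups did not overlap in CPM for 0 of the 8, against 2.18% of all tested genes.

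Among the period genes, *Per3* had the largest difference between groups. *Per3* (GRCm38 chromosome 4, 151003652 to 151044665) encodes a period protein that is dispensable for rhythm in mice. It stood at 3.73, 6.07, 7.04, 4.21 and 3.01 CPM in ethanol 51, 57, 59, 60 and 62, against 3.27, 3.01, 2.28, 3.59 and 3.30 CPM in saline 32, 34, 36, 38 and 39. Ethanol 51, 57, 59 and 60 lay above every saline mouse, whereas ethanol 62 lay within the saline range. The log2 fold change was 0.64 ± 0.21 (SE, 95% interval 0.18 to 1.10, edgeR FDR = 0.322), which is a fold of 1.56, and DESeq2 gave an adjusted p of 0.151. By annotation *Per3* shares sequence span with *Camta1* on the same strand.

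*Per1* (chromosome 11, 69095217 to 69109960), the period gene that responds fastest to hormones, was the most abundant period transcript. Its level was 104, 93.2, 74.1, 97.7 and 63.2 CPM in ethanol 51, 57, 59, 60 and 62, and 87.4, 80.0, 140.2, 124 and 89.9 CPM in saline 32, 34, 36, 38 and 39. Saline 36 and saline 38 were the highest mice and ethanol 62 and ethanol 59 the lowest, with the others mixed. The log2 fold change was -0.27 ± 0.18 (SE, 95% interval -0.66 to 0.12, edgeR FDR = 0.556), or -0.15 without saline 36 and -0.18 without ethanol 62. *Per2* (chromosome 1, 91415982 to 91459324), whose protein is a core part of the repressor complex, was scarce, at 2.84, 3.65, 3.71, 2.93 and 2.03 CPM in ethanol 51, 57, 59, 60 and 62 and at 2.69, 3.67, 3.12, 4.08 and 3.10 CPM in saline 32, 34, 36, 38 and 39. These groups overlapped almost fully, with a log2 fold change of -0.13 ± 0.17 (SE, 95% interval -0.50 to 0.24, edgeR FDR = 0.791). Without ethanol 62 the value was -0.02 and without saline 38 -0.05, and without ethanol 59, ethanol 57 or saline 32 it was -0.22, -0.21 and -0.21.

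Of the cryptochromes, CRY1 is the stronger repressor and CRY2 the weaker. *Cry1* (chromosome 10, 85131700 to 85185064) stood at 15.2, 10.7, 9.34, 10.6 and 10.3 CPM in ethanol 51, 57, 59, 60 and 62, against 16.2, 16.8, 13.1, 14.6 and 13.0 CPM in saline 32, 34, 36, 38 and 39. Ethanol 57, 59, 60 and 62 lay below every saline mouse, and ethanol 51 lay inside the saline range. The log2 fold change was -0.39 ± 0.13 (SE, 95% interval -0.67 to -0.11, edgeR FDR = 0.322), a fold of 0.763, and without ethanol 51 it was -0.53 (edgeR FDR = 0.161). Without ethanol 59 it was -0.34 (edgeR FDR = 0.443), and without saline 34 also -0.34 (edgeR FDR = 0.284).

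*Cry2* (chromosome 2, 92403646 to 92434043) had the widest spread of the repressors. It stood at 122, 46.6, 52.2, 97.3 and 86.4 CPM in ethanol 51, 57, 59, 60 and 62 and at 113, 65.1, 239, 100.3 and 95.1 CPM in saline 32, 34, 36, 38 and 39. Saline 36 held by far the highest level, ethanol 57 and ethanol 59 the lowest, and the other mice of the groups overlapped. The log2 fold change was -0.60 ± 0.39 (SE, 95% interval -1.48 to 0.28, edgeR FDR = 0.554), and without saline 36 it was -0.22. In saline 36 the mean of the 14 genes of the glucocorticoid receptor target list was also the highest, at 8.66 log2 CPM. It was 7.14 to 7.78 in ethanol and 7.53 to 8.01 in the other saline mice. This was not particular to that list. Saline 36 was also highest for the activator and REV-ERB or ROR, kinase and ubiquitin enzyme, and complex partner lists given below. So it was for the clock output, hypoxia and slow fibre lists, and it was lowest for the adipocyte list. Its library had the largest total (42.7 M) and the lowest TMM factor (0.917). The part of these in the *Cry2* value was not tested.

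*Ciart* (chromosome 3, 95878503 to 95882251) was at 1.05, 2.81, 2.46, 1.18 and 1.12 CPM in ethanol 51, 57, 59, 60 and 62 and at 1.13, 1.998, 1.25, 1.502 and 2.71 CPM in saline 32, 34, 36, 38 and 39. Both groups held high and low mice, and ethanol 57, saline 39, ethanol 59 and saline 34 were the highest 4 of all. *Bhlhe40* (chromosome 6, 108660629 to 108666925) was at 37.6, 57.5, 52.6, 36.1 and 36.9 CPM in ethanol 51, 57, 59, 60 and 62 and at 38.5, 47.8, 41.4, 39.8 and 53.8 CPM in saline 32, 34, 36, 38 and 39. Its highest 4 mice were those of *Ciart*, in the same order. The log2 fold changes were 0.02 ± 0.33 for *Ciart* (SE, 95% interval -0.69 to 0.72, edgeR FDR = 0.989) and -0.0037 ± 0.14 for *Bhlhe40* (SE, 95% interval -0.32 to 0.31, edgeR FDR = 0.994), and the sign of both depended on which mouse was left out. That of *Bhlhe40* also turned with total count scaling (0.0351).

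*Bhlhe41* (chromosome 6, 145858243 to 145865558), the other DEC gene, had the largest fold change of the repressors. It stood at 23.7, 40.3, 54.7, 23.1 and 26.5 CPM in ethanol 51, 57, 59, 60 and 62, against 16.0, 22.99, 14.3, 19.3 and 23.97 CPM in saline 32, 34, 36, 38 and 39. Ethanol 57, 59 and 62 lay above every saline mouse, and ethanol 51 and ethanol 60 lay above 4 of the 5 and just under saline 39. The log2 fold change was 0.80 ± 0.26 (SE, 95% interval 0.21 to 1.39, edgeR FDR = 0.332), a fold of 1.74, with a DESeq2 adjusted p of 0.0763. Leaving out ethanol 59 gave 0.55, the lowest value with 1 mouse left out. In two-sided exact permutation tests of log2 CPM over all splits of the mice into groups of 5, which cannot go below 0.00794, unadjusted p was 0.0317 for *Bhlhe41*, 0.0317 for *Cry1* and 0.0476 for *Per3*, and 0.198 to 0.873 for the other 5.

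**Figure D1:**
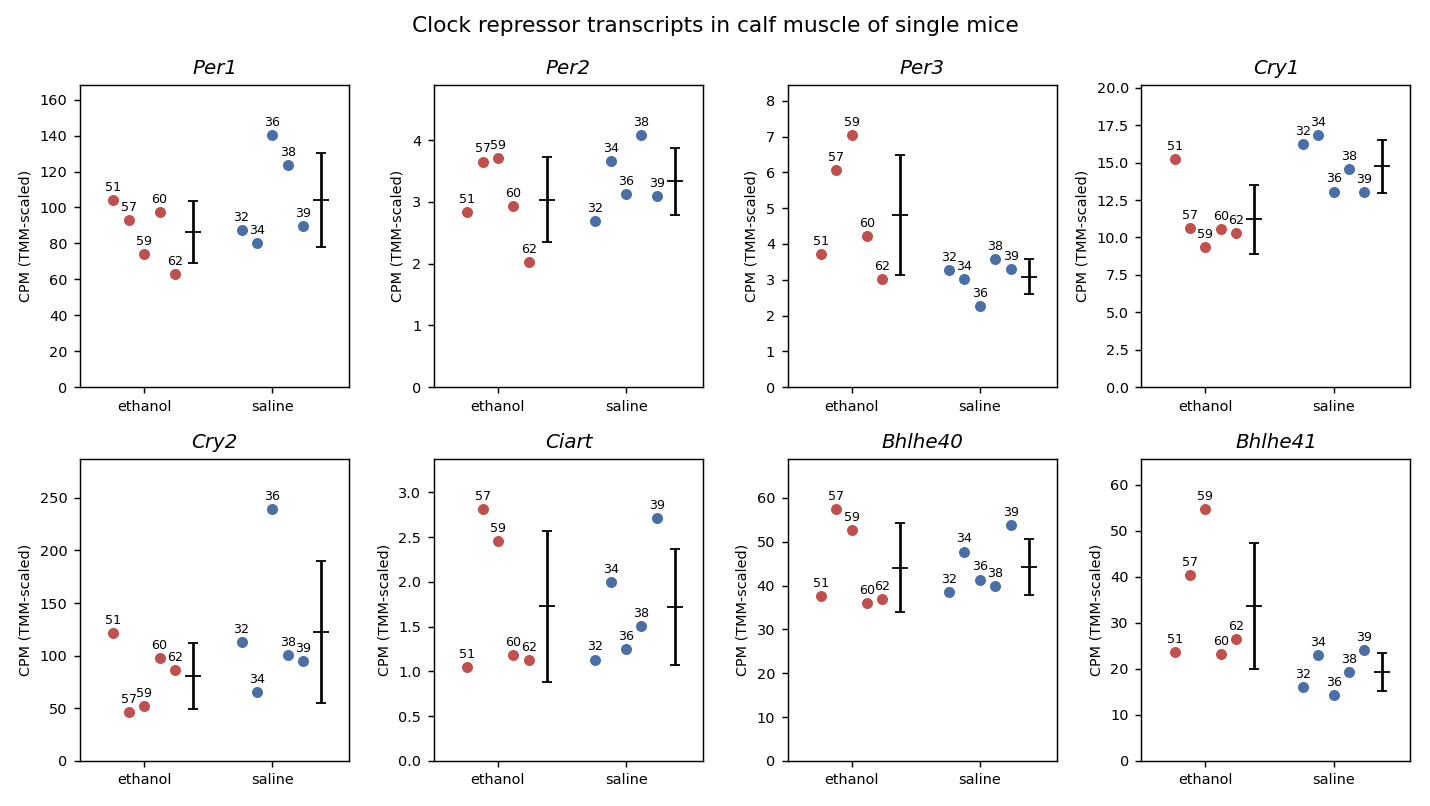
TMM-scaled CPM (vertical axes, from 0) of the 8 repressor transcripts, 1 point a mouse with its animal number, ethanol to the left of saline, with a bar at the mean and its SD (n = 5 each). Ethanol 57 and ethanol 59 stand highest for *Per3* and *Bhlhe41*, 4 of 5 ethanol mice lie below all saline mice for *Cry1*, and saline 36 stands alone for *Cry2* at 239 CPM.

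**Figure D2:**
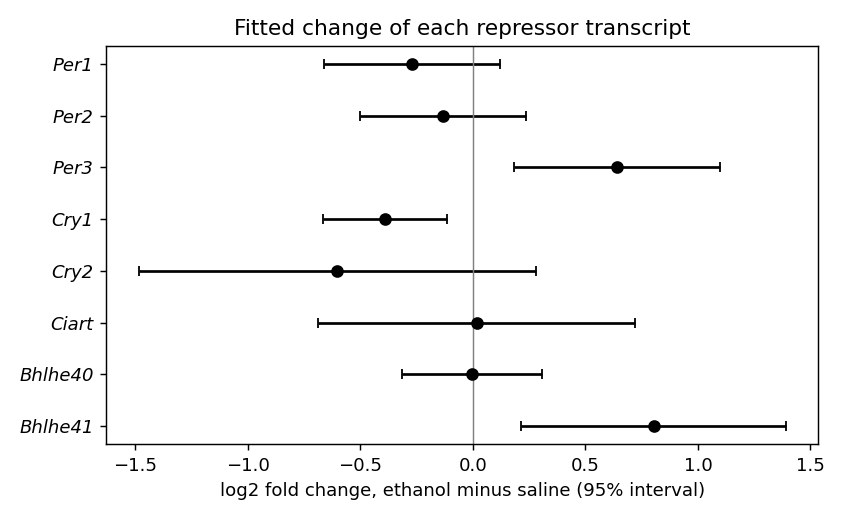
Log2 fold change, ethanol minus saline, of each repressor transcript (horizontal axis) with its 95% interval from edgeR. The intervals of *Per3*, *Cry1* and *Bhlhe41* leave out 0, those of the other 5 include it, and the widest is that of *Cry2*, from -1.48 to 0.28.

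Per kilobase of the longest coding transcript, *Cry2* and *Per1* were the most abundant repressors, at 20.3 and 18.5 CPM per kb in ethanol and 30.8 and 22.3 CPM per kb in saline. Neither stood consistently above the other: *Cry2* exceeded *Per1* in 3 ethanol and 3 saline mice. *Bhlhe40* came next, at 14.2 CPM per kb in ethanol and 14.2 in saline. *Bhlhe41* averaged 5.49 CPM per kb in ethanol and 3.15 in saline, and *Cry1* 3.71 in ethanol and 4.87 in saline, so that *Bhlhe41* exceeded *Cry1* in 4 of 5 ethanol mice and in 0 of 5 saline mice. That order depends on the lengths taken, 6.133 kb for *Bhlhe41* and 3.026 kb for *Cry1*, and the transcripts used in muscle were not examined. In CPM the mean of *Bhlhe41* was above that of *Cry1* in ethanol (33.7 against 11.2) and in saline (19.3 against 14.7). The scarcest were *Ciart* (0.891 and 0.887 CPM per kb in ethanol and saline), *Per3* (0.802 and 0.515) and *Per2* (0.520 and 0.571). *Per3* exceeded *Per2* in 5 of 5 ethanol and 2 of 5 saline mice.

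A ratio of transcripts within a mouse does not depend on how libraries are scaled. *Bhlhe41* over *Bhlhe40* was 0.630, 0.701, 1.04, 0.641 and 0.718 in ethanol 51, 57, 59, 60 and 62, against 0.415, 0.481, 0.346, 0.484 and 0.446 in saline 32, 34, 36, 38 and 39. Every ethanol mouse lay above every saline mouse. The period ratio *Per3* over *Per2* was 1.31, 1.66, 1.89, 1.44 and 1.48 in ethanol 51, 57, 59, 60 and 62, against 1.21, 0.821, 0.730, 0.880 and 1.06 in saline 32, 34, 36, 38 and 39, again without overlap. In contrast, *Per1* over *Per2* averaged 29.3 ± 6.65 in ethanol and 31.7 ± 8.39 in saline, and *Cry1* over *Cry2* averaged 0.152 ± 0.051 in ethanol and 0.148 ± 0.073 in saline (SD, n = 5 each), and the groups overlapped in both. For *Per1* over *Per2*, ethanol 59 lay below every saline mouse and saline 36 above every ethanol mouse. Of the 28 pairs of repressors, 4 had a ratio without overlap between groups (14.3%), against 2.38% of all 86849610 pairs of tested genes. Both shares were counted on differences of log2 CPM with a prior count of 2, which for scarce genes are not fully free of scaling. The other 2 of the 4 were *Bhlhe41* over *Per2* and *Bhlhe41* over *Ciart*, and in both the groups lay apart only narrowly. The nearest mice had few counts of the scarcer gene: 62 of *Per2* in ethanol 60 and 111 in saline 39. For *Ciart* the nearest mice had 84 counts in ethanol 57 and 45 in saline 32. *Per3* over *Per2* also left a narrow gap, between ethanol 51 (1.31) and saline 32 (1.21). Those mice had 117 and 130 counts of *Per3* and 89 and 107 of *Per2*. Whether counting error spans these gaps was not tested. The 4 pairs share members and are given as a description.

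**Figure D3:**
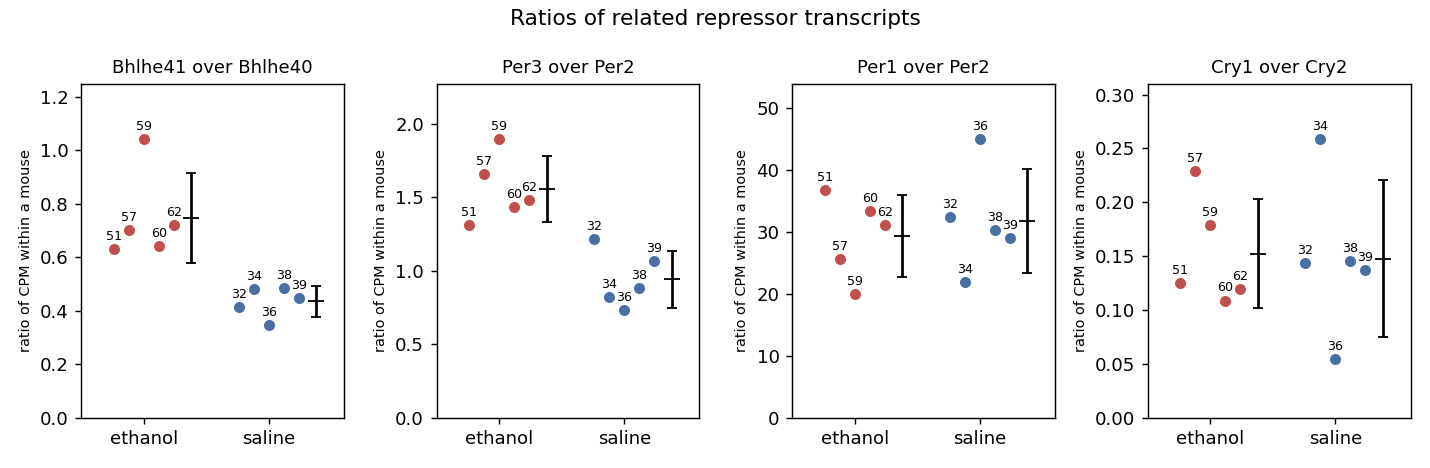
Ratio of CPM of related repressors within each mouse (vertical axes, from 0), ethanol to the left of saline, with a bar at the mean and its SD (n = 5 each). *Bhlhe41* over *Bhlhe40* and *Per3* over *Per2* do not overlap between groups, while the *Per1* and *Cry1* ratios do. The former 2 run from 0.630 and 1.31 upward in ethanol and up to 0.484 and 1.215 in saline, a narrow gap for *Per3* over *Per2*.

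Start-site sequences were available for 6 of the 8 genes in RefSeq's table on GRCm38.p6, all but *Per2* and *Bhlhe40*, with 2 start sites for *Per1*. They are shown for the genes with an unadjusted edgeR p under 0.05 (*Bhlhe41*, *Per3* and *Cry1*) and for *Ciart* and the upstream start of *Per1*, to set the elements through which the clock acts beside the values. Each runs 5′ to 3′ on the gene's strand, from 250 bases before to 50 bases after the start. Capitals mark the E-box CACGTG, its variant CACGTT, which reads AACGTG on the other strand, and the D-box TTATGNAA, bound by DBP and NFIL3.
Bhlhe41 (chr6:145865371-145865670, minus strand): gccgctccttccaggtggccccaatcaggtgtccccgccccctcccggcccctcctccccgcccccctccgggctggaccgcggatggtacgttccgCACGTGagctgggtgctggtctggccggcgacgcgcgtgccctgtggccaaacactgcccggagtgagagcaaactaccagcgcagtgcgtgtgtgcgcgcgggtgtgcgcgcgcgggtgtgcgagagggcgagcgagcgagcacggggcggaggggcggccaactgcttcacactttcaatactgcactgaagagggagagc
Per3 (chr4:151044616-151044915, minus strand): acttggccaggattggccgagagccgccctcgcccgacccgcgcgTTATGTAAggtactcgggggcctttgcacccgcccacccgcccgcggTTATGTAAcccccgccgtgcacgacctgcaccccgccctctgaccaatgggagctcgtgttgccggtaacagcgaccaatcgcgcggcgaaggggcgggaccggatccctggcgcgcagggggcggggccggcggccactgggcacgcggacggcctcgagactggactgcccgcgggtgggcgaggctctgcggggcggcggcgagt
Cry1 (chr10:85185005-85185304, minus strand): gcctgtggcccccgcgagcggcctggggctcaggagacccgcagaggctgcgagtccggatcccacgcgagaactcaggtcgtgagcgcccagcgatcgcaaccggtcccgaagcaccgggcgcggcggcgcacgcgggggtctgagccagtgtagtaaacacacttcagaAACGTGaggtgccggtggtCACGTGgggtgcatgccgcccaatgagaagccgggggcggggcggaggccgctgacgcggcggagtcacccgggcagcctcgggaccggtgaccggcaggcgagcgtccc
Ciart (chr3:95882179-95882478, minus strand): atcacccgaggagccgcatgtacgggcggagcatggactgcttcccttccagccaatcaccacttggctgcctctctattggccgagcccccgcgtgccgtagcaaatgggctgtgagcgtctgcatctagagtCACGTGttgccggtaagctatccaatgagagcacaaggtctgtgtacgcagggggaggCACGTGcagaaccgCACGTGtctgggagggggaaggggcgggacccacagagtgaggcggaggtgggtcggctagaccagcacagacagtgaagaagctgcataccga
Per1 (chr11:69098699-69098998, plus strand): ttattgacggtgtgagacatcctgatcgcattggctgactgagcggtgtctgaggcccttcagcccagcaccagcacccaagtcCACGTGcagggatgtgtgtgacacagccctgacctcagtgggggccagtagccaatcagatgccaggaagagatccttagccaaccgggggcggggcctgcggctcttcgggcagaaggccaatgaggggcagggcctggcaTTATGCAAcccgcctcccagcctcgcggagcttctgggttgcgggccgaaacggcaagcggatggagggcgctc
The 3 E-boxes of *Ciart* begin at -116, -58 and -44 from the start site, that of *Bhlhe41* at -153, that of *Cry1* at -60 and that of *Per1* at -166. *Per3* has no CACGTG in this window and carries 2 D-boxes, at -205 and -158, and the D-box of *Per1* begins at -24. The other *Per1* window, which is not shown, holds neither an E-box nor a D-box. On either strand CACGTG is in 4 of the 7 windows of these genes, against 7.15% of 32817 start-site windows of the same length, CACGTT in 2 of 7 (4.69%) and the D-box in 2 of 7 (3.39%). The *Cry2* window holds CACGTT at -166 and no CACGTG. The full cAMP response element TGACGTCA is in none of the 7 windows (1.79% of all windows), while its shorter form TGACG, which lies inside the full one, is in 4 of 7 (20.79%). By gene TGACG is in 3 of 6, since both *Per1* windows hold it. Genes on both sides of the comparison (*Bhlhe41* and *Cry1*) hold an E-box. A match describes the letters, not a bound site.

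From mouse to mouse the repressors spread more widely than most genes. The pooled within-group SD of log2 CPM had a median of 0.36 over the 8 repressors and of 0.19 over all tested genes. *Cry2* (0.64) stood at percentile 98.1 of all tested genes, *Ciart* (0.58) at 96.9, *Bhlhe41* (0.45) at 91.6 and *Per3* (0.39) at 87.7, and the lowest was *Cry1* (0.22) at 61.4. Among the 500 tested genes nearest in level to each, the percentiles ran from 70.4 for *Per2* to 99.4 for *Cry2*. Counting error made up 25.9% of the within-group variance of *Per2*, 13.3% of that of *Ciart*, 11.9% for *Per3* and 11.1% for *Cry1*, and at most 2.21% for the others.

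**Figure D4:**
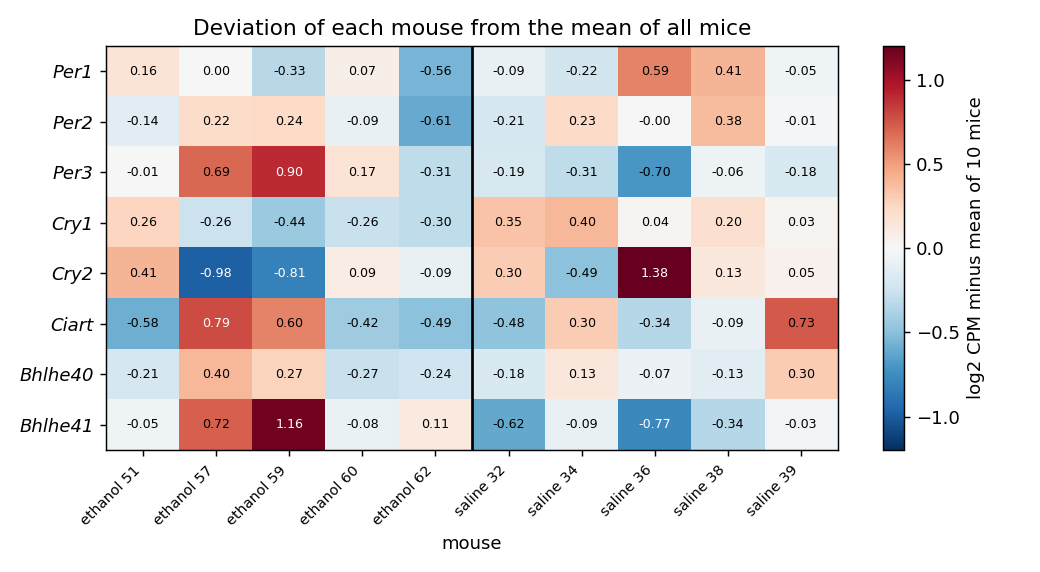
Log2 CPM of each repressor (rows) in each mouse (columns, ethanol left of the line, saline right of it) minus the mean of the 10 mice, in colour and digits. In ethanol 57 and ethanol 59 *Per3*, *Ciart*, *Bhlhe40* and *Bhlhe41* are above the mean and *Cry1* and *Cry2* below it, and saline 36 is the highest mouse for *Cry2* and the lowest for *Per3* and *Bhlhe41*.

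Relations between the repressors were computed for all 28 pairs over the 10 mice, and 3 passed an adjusted permutation p of 0.05. The share of pairs passing among all tested genes was not computed, here or for the other clock genes below. *Cry2* and *Bhlhe41* each ran closer still with genes outside the clock, as given below. *Ciart* and *Bhlhe40* ran most closely together, with Pearson's r = 0.975 (permutation p = 7e-05, adjusted p = 0.00196) and Spearman's rho = 0.903 (permutation p = 0.00075, adjusted p = 0.021). Without ethanol 57 and saline 39, the mice farthest from the median of *Ciart*, r was 0.952, and for deviations from the group means it was 0.975. Of 9112 genes ranked, *Bhlhe40* was the one whose pattern was most like that of *Ciart*.

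*Bhlhe41* and *Per3* were related with r = 0.887 (permutation p = 0.00153, adjusted p = 0.0214) and rho = 0.661 (permutation p = 0.0438, adjusted p = 0.199). The relation rests on ethanol 57 and ethanol 59, since without them r was 0.518 (exact p = 0.198). *Bhlhe41* and *Cry2* ran in opposite directions, with r = -0.843 (permutation p = 0.00269, adjusted p = 0.0251) and rho = -0.770 (permutation p = 0.0124, adjusted p = 0.174). Without ethanol 57 and saline 36 r was -0.785 (exact p = 0.0232), and within groups -0.830. *Bhlhe40* and *Bhlhe41* had r = 0.609 over the 10 mice (adjusted p = 0.159) and r = 0.873 for deviations from the group means, and *Ciart* and *Bhlhe41* 0.634 (adjusted p = 0.159) and 0.907. *Per1* passed with none of the others, its closest being *Cry2* (r = 0.653, adjusted p = 0.159), and *Cry1* with *Cry2* had r = 0.388 (adjusted p = 0.402).

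**Figure D5:**
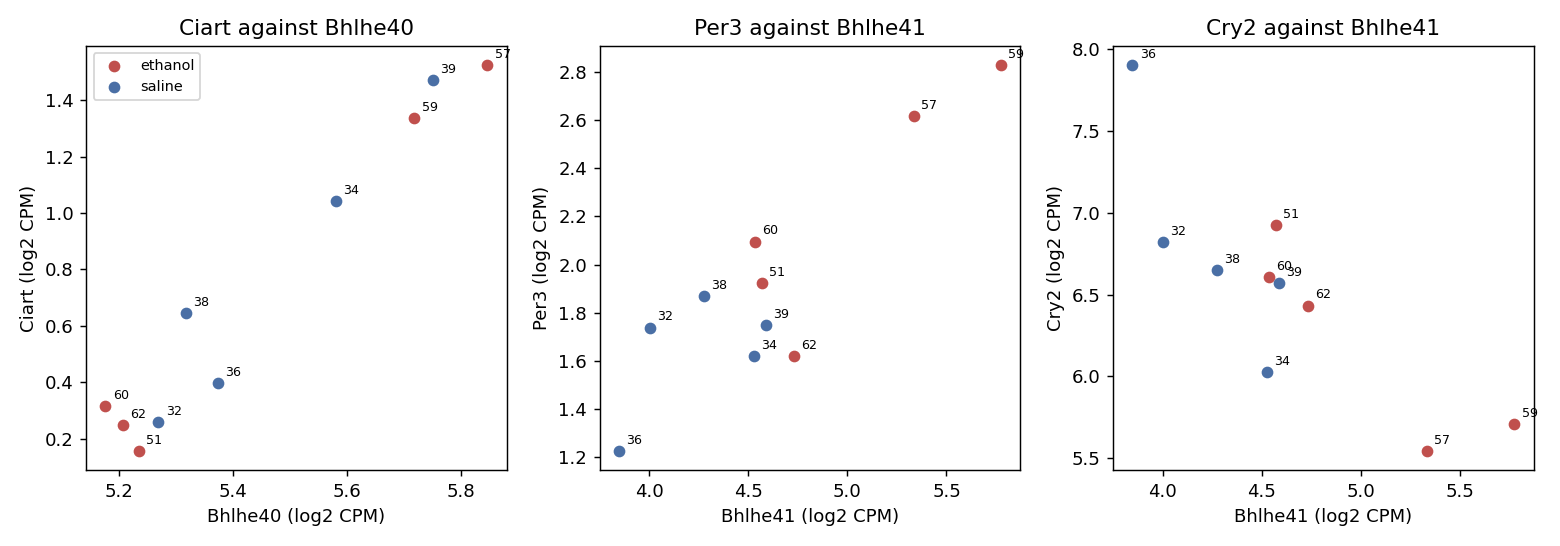
Log2 CPM of *Ciart* against *Bhlhe40*, *Per3* against *Bhlhe41* and *Cry2* against *Bhlhe41*, 1 point a mouse with its animal number, ethanol and saline in separate colours. *Ciart* and *Bhlhe40* line up over both groups (r = 0.975), whereas ethanol 57 and ethanol 59 carry much of the relation of *Per3* with *Bhlhe41*.

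Against 14 other clock genes, the activators with the REV-ERB and ROR genes and the clock output factors, 112 relations were computed, and 4 passed an adjusted permutation p of 0.05. *Cry2* ran with *Arntl*, which encodes BMAL1 (r = 0.949, permutation p = 4e-05, adjusted p = 0.00448, rho = 0.964, permutation p = 6e-05, adjusted p = 0.00672). *Arntl* stood at 80.3, 33.7, 42.4, 61.3 and 60.3 CPM in ethanol 51, 57, 59, 60 and 62, against 72.3, 55.2, 106.9, 65.0 and 50.8 CPM in saline 32, 34, 36, 38 and 39, so saline 36 was again the highest and ethanol 57 and ethanol 59 the lowest. Without ethanol 57 and saline 36 that r was 0.870 (exact p = 0.00414), and within groups 0.940. *Cry2* also ran with *Nfil3*, a repressor of D-box genes (r = 0.891, permutation p = 0.00059, adjusted p = 0.0328, rho = 0.806, permutation p = 0.00666, adjusted p = 0.105), and with *Rora*, an activator of *Arntl* (r = 0.860, permutation p = 0.00117, adjusted p = 0.0328, rho = 0.721, permutation p = 0.0232, adjusted p = 0.144), and these were 0.606 (exact p = 0.112) and 0.612 (exact p = 0.112) without the same 2 mice. *Ciart* ran against *Npas2*, a relative of *Clock* (r = -0.856, permutation p = 0.00106, adjusted p = 0.0328, rho = -0.733, permutation p = 0.0202, adjusted p = 0.144), at -0.667 (exact p = 0.0812) without ethanol 57 and saline 39. Another 9 relations stood at an adjusted p of 0.0501. Among them were those of *Arntl* with *Bhlhe41* (r = -0.837) and *Ciart* (r = -0.800), and of *Clock* with *Per1* (r = 0.824). Others were of the D-box factor gene *Dbp* with *Bhlhe41* (r = 0.852) and *Bhlhe40* (r = 0.789). Another was of *Nr1d2* with *Bhlhe40* (r = 0.845). Without ethanol 57 and ethanol 59, r with *Bhlhe41* was -0.728 for *Arntl* (exact p = 0.0384) and 0.444 for *Dbp* (exact p = 0.267). Without ethanol 57 and saline 39, *Bhlhe40* was at 0.676 with *Dbp* (exact p = 0.0880) and 0.931 with *Nr1d2* (exact p = 2.5e-05). *Ciart* with *Arntl* was then at -0.700 (exact p = 0.0546). *Clock* with *Per1* was at 0.810 without ethanol 62 and saline 36 (exact p = 0.0179). By rho, *Clock* with *Bhlhe41* (rho = -0.915, permutation p = 0.00057, adjusted p = 0.0319) and *Npas2* with *Cry2* (rho = 0.903, permutation p = 9e-04, adjusted p = 0.0336) also passed, with r = -0.770 and 0.809. The r of *Clock* with *Bhlhe41* was -0.738 without ethanol 57 and ethanol 59 (exact p = 0.0408). That of *Npas2* with *Cry2* was 0.481 without ethanol 57 and saline 36 (exact p = 0.224). These relations were added after the data were seen.

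The genes most like each repressor over the 10 mice, among genes at 5 CPM or more, were mostly outside the clock, and with so many genes ranked over so few mice they are named as a description. For *Cry2* they were *Pnrc1*, *Ulk1* and *Ranbp9* (r from 0.988 to 0.994). *Ulk1* encodes a kinase that starts autophagy. For *Bhlhe41* they were *Nicn1*, *Cln8* and *1700021K19Rik* (r from 0.964 to 0.983), and *Cln8* was also the closest to *Per3* (r = 0.939), followed by *2310067B10Rik* and *Nsf*. For *Bhlhe40* they were the mitochondrial carrier gene *Slc25a25*, *Vps37c* and *Snx17* (r from 0.888 to 0.902), for *Ciart* after *Bhlhe40* the kinase gene *Nlk* and *Abcb9*, for *Per1* *Ttc38*, *Ganab* and *Ppwd1* (0.929 to 0.944), for *Per2* *Pitx3*, *Ccdc132* and *Slc25a46* (0.863 to 0.915) and for *Cry1* *Abcb1b*, *Orc4* and *Rbm7* (0.896 to 0.929). The floor of 5 CPM kept scarce clock genes out of the ranking, among them *Ciart*, *Per2*, *Per3* and *Npas2*. *Ciart* was closer to *Bhlhe40* (r = 0.975) than the genes listed for it.

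The rest of the loop gave no call either. Of 8 tested activator and REV-ERB or ROR genes, 0 passed the FDR threshold, 1 (*Clock*) stood at an unadjusted p under 0.05, 1 was positive and 7 negative, with a median log2 fold change of -0.20. *Clock*, the partner of BMAL1, was at 41.7 ± 2.86 CPM in ethanol and 48.5 ± 6.83 in saline (SD, n = 5 each, log2 fold change -0.22 ± 0.09, SE). *Nr1d1*, a REV-ERB repressor of *Arntl*, was the positive one, at 174 ± 36.3 and 149 ± 31.9 CPM in ethanol and saline (0.23 ± 0.16), with *Arntl* at -0.33, *Npas2* at -0.21, *Arntl2* at -0.02, *Nr1d2* at -0.06 and *Rora* at -0.48. Without saline 36 *Rora* was at -0.24, *Arntl* at -0.14 and *Npas2* at -0.01, and without ethanol 57 *Arntl* was at -0.20 and *Npas2* at -0.07. *Arntl* was at -0.50 without ethanol 51, *Npas2* at -0.35 without saline 39, and *Nr1d1* at 0.12 without ethanol 59 and 0.14 without saline 34. With 1 mouse left out *Arntl2* ran from -0.14 to 0.24 and *Nr1d2* from -0.12 to -0.02. Of the 6 clock output genes 0 passed, 1 (*Dbp*) stood at an unadjusted p under 0.05, 2 were positive and 4 negative (median -0.10). *Dbp* was at 9.67 ± 4.07 CPM in ethanol and 6.70 ± 0.97 in saline (SD, n = 5 each, log2 fold change 0.53 ± 0.24), *Nfil3* at -0.72 ± 0.34, *Tef* at -0.0059, *Hlf* at 0.13, *Wee1* at -0.25 and *Nampt* at -0.19. Without ethanol 57 *Dbp* was at 0.30, and without saline 36 *Nfil3* was at -0.37 and *Nampt* at -0.10. With 1 mouse left out *Wee1* ran from -0.54 (without ethanol 57) to -0.10 (without ethanol 62), *Hlf* from 0.08 (without saline 39) to 0.18, and *Tef* from -0.04 to 0.02.

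Genes that act on the repressor proteins were counted in the same fit. Of 12 tested kinases and ubiquitin enzymes of PER and CRY 0 passed, 1 was positive and 11 negative (median -0.15). The casein kinase gene *Csnk1a1* had a log2 fold change of -0.19 ± 0.10 (SE) and *Fbxw11*, a ubiquitin ligase subunit for PER, one of -0.22 ± 0.12, and without saline 36 these were -0.11 and -0.10. Of 10 partners of the repressor complex 0 passed, 4 were positive and 6 negative (median -0.03), with *Tipin* at 0.25 ± 0.12, *Sin3a* at -0.21 ± 0.12 (-0.12 without ethanol 59) and *Wdr5* at -0.11 ± 0.07.

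Lists of signals known to act on *Per1* or the DEC genes also gave 0 calls. The 14 glucocorticoid receptor targets, *Per1* among them, were all negative (median -0.48), with *Tsc22d3* at -0.46 ± 0.19 and the metallothionein genes *Mt1* and *Mt2* at -0.87 ± 0.37 and -0.95 ± 0.46 (log2 ± SE). The mean log2 CPM of the list differed by -0.45 between ethanol and saline, and by -0.26 without saline 36. Without that mouse *Tsc22d3* was at -0.23 and *Mt1* at -0.57. Of 10 rapid CREB and SRF targets 4 were positive and 6 negative (median -0.17). *Atf3* was at -1.39 ± 0.38, *Fos* at -1.43 ± 0.49 and *Nr4a3* at -1.06 ± 0.62, with the highest *Fos* in saline 38 (307 CPM) and saline 39 (188 CPM). Without saline 38 *Fos* was at -0.95, and *Nr4a3* was at -0.70 without saline 39 and -1.61 without ethanol 59. Among 8 hypoxia targets 4 were positive and 4 negative (median 0.02), and 3 of the negative ones stood at an unadjusted p under 0.05: *Egln3* (-0.87 ± 0.29), *Bnip3* (-0.49 ± 0.18) and *Slc2a1* (-0.43 ± 0.17). Without saline 36 *Egln3* was at -0.51. The log2 fold change of *Bhlhe41*, which responds to low oxygen in other settings, was positive, and a part of oxygen in it was not tested.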

How the data were processed

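RNA of 10 mouse calf muscle samples was measured as poly(A) libraries read from a single end (100 bases), per the labels' protocols. The authors deposited raw read counts per gene symbol, 1 column a library. TopHat2, DESeq2 1.6.3 and mm10 are named in the submitters' processing notes without a role. How reads were counted, on which annotation and strand, is not given in the sources used here; *Cry2*, *Ciart*, *Bhlhe40* and *Bhlhe41*, which each overlap a gene on the other strand, could include its reads. In 27 rows a date had replaced the symbol (0.0972% of counts); they stayed in the totals.

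Counts were filtered with edgeR's filterByExpr (minimum count 10, minimum total 15), scaled by TMM and tested with edgeR 4.0.16's quasi-likelihood F test (robust, Benjamini-Hochberg, FDR 0.05) in R 4.3.3. SE is the log2 fold change over the square root of F. Log2 CPM has a prior count of 2. Correlations used 100000 permutations at 10 mice and all orders below 10. Coordinates and lengths come from GENCODE M21 (GRCm38), start-site sequences from RefSeq (GRCm38.p6). Adjusted p-values of correlations are Benjamini-Hochberg over the 28 or 112 pairs. Alternatives were DESeq2 1.42.0, limma-voom (limma 3.58.1), RLE factors, total count scaling, no filter, a mean of at least 5 CPM, dispersion without robust estimation, thinning, removal of the GC trend and leaving out mice. The edgeR procedure was also run on simulated data as a check of the code. Its recovery of changes as small as those of the repressors is not given here.

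Named genes were the 8 repressors, the 3 genes most like each, the tested activator and output genes, and the 3 smallest p of each other list, of which 2 genes are counted and not reported here. The members and lists were chosen with earlier results of these data known, and the relations with other clock genes, the pair ratios and the values of list genes with 1 mouse left out were added after the data were seen. With 20.3 to 42.7 M counts, depth limits *Per2*, *Per3* and *Ciart* most.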

Additional observations from a re-analysis of the deposited data

Results flagged for a closer look

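Of the 16 sets of 5 mice (8 repressors in each group), 2 held a mouse whose gap to its nearest neighbour exceeded 0.71 of the group's range (Dixon's criterion), which chance gives in about 5% of sets. *Cry1* in ethanol 51 was at 15.2 CPM, against 9.34 to 10.7 CPM in the other ethanol mice. *Cry2* in saline 36 was at 239 CPM, against 65.1 to 113 CPM in the other saline mice.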

How the results depend on the processing

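No repressor passed FDR 0.05 under any of the alternatives run (157 values, 141 with the same sign as reported and 16 with the other). *Per1*, *Per2*, *Per3*, *Cry1*, *Cry2* and *Bhlhe41* kept their sign in every alternative that tested them. The lowest and highest log2 fold changes with 1 mouse left out were 0.46 and 0.77 for *Per3*, -0.53 and -0.34 for *Cry1*, 0.55 and 0.91 for *Bhlhe41*, and -0.80 and -0.22 for *Cry2*, which was -0.29 without saline 36 and ethanol 60. At a mean of at least 5 CPM *Per2*, *Per3* and *Ciart* were not tested. *Ciart* turned negative with limma-voom (-0.0286) and with the GC trend removed (-0.0047, an alternative chosen after seeing the data), and ran from -0.24 to 0.24 with 1 mouse left out. *Bhlhe40* turned positive with total count scaling (0.0351), at 5 CPM (0.0086), after thinning (0.0027) and without saline 36 and ethanol 60 (0.0283), and ran from -0.119 to 0.0758 with 1 mouse left out. The cause was not tested. Genes called numbered 0 with edgeR, 55 with DESeq2, and 0 to 1 with 1 mouse left out (1 without saline 34 and 1 without ethanol 57).

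The 3 related pairs of repressors became 6 after thinning to the smallest total, 7 for deviations from the group means, 1 without saline 36 and ethanol 60, and 1 to 4 with 1 mouse left out (1 without saline 36, ethanol 57 or ethanol 59). *Ciart* with *Bhlhe40* passed in all 16 alternatives (r from 0.925 to 0.986). *Bhlhe41* with *Per3* and with *Cry2* missed the threshold in 4 each, the fits without saline 36, ethanol 57, ethanol 59 or both saline 36 and ethanol 60, with r there from 0.791 to 0.869 for *Per3* and from -0.864 to -0.807 for *Cry2*. The cause was not tested. No paired analysis was possible because no animal number occurs in both groups. Depth limits *Ciart* and *Per2* most, at 25 to 97 and 56 to 134 counts a library.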
